A study of Arabidopsis thaliana with 36 samples.

Results

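The response of the Arabidopsis thaliana mutant hda9-1 to warmth was measured in whole seedlings 2 days old. The tested seedlings grew at 27 °C and were set against hda9-1 seedlings grown at 22 °C, with 3 RNA sequencing libraries for each temperature. The labels put the word control before both temperatures, and the temperature itself is the same in every label of a library. A gene was taken as measured where its value reached 10 in at least 3 of these 6 libraries, which held for 20585 of the 33540 genes counted. Of these, 19564 reached 10 in all 6 libraries, 114 only in the 3 libraries from 27 °C and 131 only in the 3 libraries from 22 °C. The other 12955 genes were not tested, and 7786 genes were at 0 in all 6 libraries.

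The mutant is in the Col-0 background. After cold treatment in the dark the seeds were placed directly at 27 or 22 °C under a short-day cycle with light for 8 h, and seedlings were frozen at the moment the lights came on, so each value describes 1 time of day. For comparison, the same 2 temperatures were given at 2 days to the wild type Col-0 (WT) and to pif4-2, a mutant of the growth regulator gene PIF4, and to hda9-1 at 7 days, with 3 libraries in every group. A library combined RNA from 3 separately harvested batches, and p-values measure the spread between such pooled libraries. How far the seedlings had developed at each temperature was not recorded in the labels, so an effect of warmth and a difference of stage cannot be told apart. In whole seedlings, fewer cells of a type and less RNA per cell cannot be told apart either.

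HDA9 is a histone deacetylase, an enzyme that removes acetyl groups from histone tails and is best known for repressing transcription. In warm seedlings it acts beside PIF4, a bHLH transcription factor that accumulates when phytochrome B is inactivated by warmth and that switches on auxin synthesis genes such as YUC8. Auxin then lengthens the embryonic stem and the leaf stalks, the set of growth changes called thermomorphogenesis. During seedling establishment stored lipid is used up, the plastids green and the root starts to grow.

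Values are read counts divided by 1 size factor per library, called normalised counts below. Differences are on the log2(normalised count + 1) scale, 27 °C minus 22 °C, which understates the change of genes with few reads. A gene was called, and is said to have risen or fallen, where the limma p adjusted over all 20585 genes was under 0.05. The 6 libraries held 31861787 to 51002770 reads in genes. Strand use in counting is not given in the sources used here, so overlapping and antisense genes can hold each other's reads. Reads that mapped to several places stayed out, so the values of near-identical copies miss the reads common to them.

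Most of the measured transcriptome differed between the temperatures. Of the 20585 genes, 13953 were called (67.8%), with 6651 higher (32.3%) and 7302 lower (35.5%) at 27 °C, and the 3 libraries of each temperature did not overlap for 14729 genes (71.6%). Most of these changes were small. The median absolute log2 difference was 0.40, and 1330 genes rose (6.46%) and 1444 fell (7.01%) by at least 2-fold. At least 4-fold, 185 rose and 219 fell. At least 16-fold, 8 rose and 4 fell. The median over all genes tested was -0.03, close to 0. Counts within the gene lists below stand beside the shares of all genes, 32.3% higher and 35.5% lower. Lists and members were chosen with earlier results of these data known, so these counts describe the listed genes and were not tested. On the first principal component, which held 84.5% of the variance, the libraries from 27 °C lay at 41.6, 49.5 and 65.9, against -65.5, -48.4 and -43.1 for those from 22 °C. The libraries of 1 temperature therefore differed among themselves. Replicate 3 from 27 °C and replicate 1 from 22 °C lay farthest apart.

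**Figure D1:**
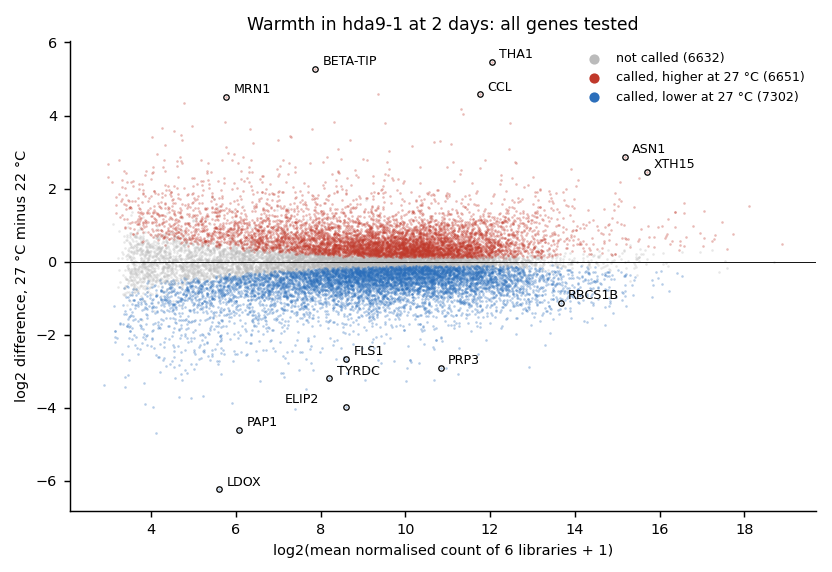
Each point is 1 of the 20585 genes tested, with its mean level over the 6 hda9-1 libraries on the x axis (log2 of normalised count + 1) and its log2 difference, 27 °C minus 22 °C, on the y axis. Called genes, 6651 higher and 7302 lower, fill both sides at every level, and circles mark genes named in the text, from THA1 at 5.46 to LDOX at -6.23.

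The mutated gene and the core of warmth signalling were examined first. Reads of HDA9 (AT3G44680) were few in the mutant, with 35.9, 42.8 and 38.7 normalised counts at 27 °C, against 26.2, 27.6 and 26.2 at 22 °C. The remaining reads were higher at 27 °C in every library (log2 difference 0.53, SE 0.09, adjusted p = 8.48e-05), whereas WT libraries held 407 ± 15.8 normalised counts at 27 °C and 549 ± 37.9 at 22 °C (SD, n = 3 each). PIF4 (AT2G43010) had 3250.0, 3863 and 4362 normalised counts at 27 °C, against 1042, 1331 and 1396 at 22 °C (log2 difference 1.61, SE 0.23, adjusted p = 1.23e-05). PIF4 therefore rose in the warm mutant, with no overlap between the temperatures. YUC8 (AT4G28720), which encodes the flavin monooxygenase that makes auxin under PIF4 control, had 1095, 1119 and 1223 normalised counts at 27 °C, against 693, 703 and 789.8 at 22 °C (log2 difference 0.65, SE 0.14, adjusted p = 0.000531).

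Genes that respond to auxin moved unevenly. IAA29 (AT4G32280), an early auxin response repressor gene, had 1027, 954 and 1079 normalised counts at 27 °C, against 421, 477 and 539 at 22 °C (log2 difference 1.09, SE 0.16, adjusted p = 2.14e-05). The related gene IAA19 (AT3G15540) had 3715, 3830.4 and 3815 normalised counts at 27 °C, against 2853, 3342 and 3107 at 22 °C. All 3 warm libraries exceeded all 3 cool ones for IAA19, yet the difference did not pass the test (log2 difference 0.29, SE 0.19, adjusted p = 0.176). It did in limma fits of the 6 hda9-1 libraries alone (adjusted p = 0.00349) or without replicate 3 of WT and pif4-2 (adjusted p = 0.0148). Of 30 genes of auxin response and transport, 20 rose and 4 fell (median 0.52). Those with the largest rises after IAA29 were IAA14 at 1.06 (SE 0.14), SAUR19 at 1.03 (SE 0.20) and SAUR15 at 1.02 (SE 0.19), the last 2 being small auxin-induced growth genes. Among 9 auxin synthesis genes tested, 2 rose, YUC8 and YUC6 at 0.36 (SE 0.09), and 1 fell, the aminotransferase gene TAR2 at -0.85 (SE 0.13).

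Targets of PIF factors and of shade rose in the main. Of 17 such genes, 10 rose and 1 fell (median 0.54). XTH15 (AT4G14130), a xyloglucan endotransglucosylase that loosens cell walls, had 92317, 93164 and 83231 normalised counts at 27 °C, against 14392, 18559 and 16153 at 22 °C (log2 difference 2.46, SE 0.12, adjusted p = 4.55e-10). Every warm library lay far above every cool one. The bHLH brake genes HFR1 and PAR1 differed by 1.1 (SE 0.15) and 1.00 (SE 0.17), and the homeodomain gene HB-2 by 0.96 (SE 0.14). Of 20 genes of photoreceptors and light signalling, 10 rose and 4 fell. PIF5 stood beside PIF4 among the risers at 1.03 (SE 0.20), as did the UV-B receptor gene UVR8 at 0.71 (SE 0.07). HYH (AT3G17609), a bZIP activator of light-induced genes, had 198, 215 and 266 normalised counts at 27 °C, against 698, 692 and 651 at 22 °C, with a log2 difference of -1.59 (SE 0.13, adjusted p = 4.06e-08).

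Brassinosteroids and gibberellins also promote stem growth. Of 12 brassinosteroid genes 8 rose and none fell (median 0.31). CPD (AT5G05690), a cytochrome P450 of brassinosteroid synthesis, had 14440, 16596 and 18089 normalised counts at 27 °C, against 5409.7, 6136 and 6128 at 22 °C (log2 difference 1.47, SE 0.13, adjusted p = 1.25e-07). DWF4, which catalyses a rate-limiting step of the same route, differed by 0.82 (SE 0.11), and ROT3, a later hydroxylase, by 0.79 (SE 0.10). Of 19 gibberellin genes tested, 11 rose and 4 fell. GA2OX1 (AT1G78440), an enzyme that inactivates gibberellin, had 26.4, 34.2 and 25.5 normalised counts at 27 °C, against 1.69, 2.44 and 1.25 at 22 °C. Over 3 libraries these were 84 reads at 27 °C against 6 at 22 °C, which gives a ratio of 15.1 with an exact 95% counting interval of 6.66 to 42.3. GA2OX1 reached 10 only at 27 °C, so it was tested only through the temperature where it is high. GA2OX8, an enzyme of the same class with other substrates, went the other way at -2.01 (SE 0.24), and the gibberellin-induced gene GASA14 rose by 1.8 (SE 0.14).

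Other hormone pathways gave mixed counts, beside the 32.3% of all genes that rose and the 35.5% that fell. Of 14 abscisic acid genes tested 7 rose and 3 fell. HAI1 (AT5G59220), a phosphatase that damps abscisic acid signalling, had 430.2, 520.5 and 742 normalised counts at 27 °C, against 46.5, 109.7 and 178 at 22 °C (log2 difference 2.49, SE 0.38, adjusted p = 2.55e-05). ABI1, a related phosphatase, differed by 1.04 (SE 0.14), and CYP707A2, which breaks abscisic acid down, by 1.77 (SE 0.40). Of 15 ethylene genes 7 rose and 1 fell, with EFE, an ethylene-forming oxidase, at 1.09 (SE 0.28) and EIN3, the master regulator of ethylene responses, at 0.76 (SE 0.08). Among 8 type-A cytokinin response regulators 2 rose, ARR9 at 0.83 (SE 0.12) and ARR5 at 0.48 (SE 0.10), and 4 fell, led by ARR7 at -1.15 (SE 0.20). Of 17 jasmonate genes 4 rose and 3 fell, or 5 without WT replicate 2 from 27 °C. ST2A (AT5G07010), a sulfotransferase that inactivates hydroxyjasmonate, had 11698, 10291 and 11732 normalised counts at 27 °C, against 4578, 5489 and 5179 at 22 °C (log2 difference 1.15, SE 0.20, adjusted p = 9.14e-05). JAZ10, a repressor of jasmonate signalling, differed by -1.01 (SE 0.12). Salicylic acid immunity gave 3 rises and 4 falls among 12 genes, with the synthesis gene ICS1 at -0.84 (SE 0.07).

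The circadian clock is built from morning genes (CCA1, LHY), pseudo-response regulators expressed through the day, and an evening complex. At lights on, 17 of 22 clock genes were higher in warm hda9-1 seedlings and 1 was lower, with a median log2 difference of 0.89. PRR7 (AT5G02810) had 3039, 3661 and 3758 normalised counts at 27 °C, against 474, 614 and 649 at 22 °C (log2 difference 2.59, SE 0.14, adjusted p = 1.31e-09). GI (AT1G22770), an evening gene that also controls flowering, had 1256, 1305 and 1145 normalised counts at 27 °C, against 215, 214 and 282 at 22 °C (log2 difference 2.39, SE 0.14, adjusted p = 2.9e-09). In both genes the warm libraries lay far above the cool ones. PRR9 (AT2G46790) had 144, 171 and 179 normalised counts at 27 °C, against 25.3, 31.7 and 39.9 at 22 °C (log2 difference 2.33, SE 0.30, adjusted p = 4.27e-06). The morning activator RVE4 differed by 1.66 (SE 0.18). 2 further members were singled out after their values were seen. The evening complex gene LUX rose by 1.52 (SE 0.10, adjusted p = 5.2e-09), and LHY was the member that fell, at -0.91 (SE 0.18, adjusted p = 0.000327).

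The evening element, which clock proteins of the CCA1 family bind, was looked for by its core AATATCT on both strands in the 250 bases before each annotated gene start. It occurred before 11 of the 22 clock genes (50.0%), against 9.94% of the 20488 windows read for all genes tested. 2 windows with 2 matches each are shown because both genes rose, with the matches in capitals, 5′ to 3′ on the gene's strand, from the RefSeq assembly TAIR10.1. PRR9 lies at chr2:19232357-19232606 (+ strand) and LUX at chr3:17182792-17183041 (+ strand).
PRR9: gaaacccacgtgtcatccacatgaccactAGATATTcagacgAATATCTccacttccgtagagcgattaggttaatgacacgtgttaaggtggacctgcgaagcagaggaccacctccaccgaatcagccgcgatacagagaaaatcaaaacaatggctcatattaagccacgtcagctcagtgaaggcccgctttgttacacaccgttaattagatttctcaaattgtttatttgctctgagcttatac
LUX: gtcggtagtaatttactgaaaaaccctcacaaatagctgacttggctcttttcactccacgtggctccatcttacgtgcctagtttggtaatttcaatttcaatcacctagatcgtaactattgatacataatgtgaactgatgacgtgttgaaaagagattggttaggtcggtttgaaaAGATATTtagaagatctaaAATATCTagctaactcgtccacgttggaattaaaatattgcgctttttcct
Of the 11 clock genes with a match 8 rose, FKF1 among them, and of the 11 without one 9 rose. Over all genes 36.6% of those with a match rose, against 31.8% of those without. A match describes letters only.

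**Figure D2:**
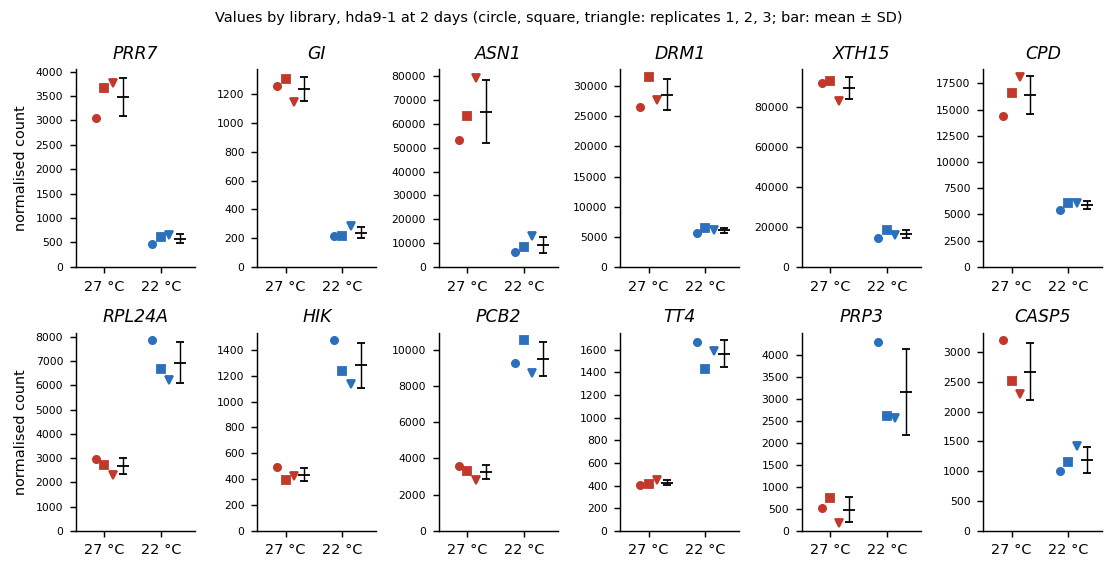
Normalised counts of 12 genes in each hda9-1 library, with 27 °C (red) left of 22 °C (blue). Symbols mark replicates 1 to 3 and bars the mean ± SD, and for each gene shown all 3 libraries of 1 temperature lie above all 3 of the other.

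The listed genes that mark a shortage of sugar rose without exception. All 12 of the carbon starvation list were called higher, with a median log2 difference of 1.51. ASN1 (AT3G47340), the dark-induced asparagine synthetase, had 53104, 63397 and 79322 normalised counts at 27 °C, against 6203, 8374 and 12920 at 22 °C (log2 difference 2.88, SE 0.43, adjusted p = 2.09e-05). BCAT-2 (AT1G10070), which breaks down branched-chain amino acids, had 9119, 9511 and 12800 normalised counts at 27 °C, against 487, 711 and 1187 at 22 °C (log2 difference 3.80, SE 0.49, adjusted p = 4.99e-06). The level of both genes at 22 °C varied more than 2-fold among libraries and was highest in replicate 3. DRM1 (AT1G28330), a dormancy-associated gene, had 26561, 31518 and 27753 normalised counts at 27 °C, against 5664, 6464 and 6146 at 22 °C (log2 difference 2.23, SE 0.10, adjusted p = 1.4e-10), and SEN1, another dark-induced gene, differed by 2.30 (SE 0.16). Of 14 starch genes 7 rose and 3 fell, with SEX1, the glucan phosphorylating enzyme of starch breakdown, at 0.96 (SE 0.09) and APL3, a subunit of the starch synthesis enzyme ADP-glucose pyrophosphorylase, at -0.72 (SE 0.13).

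The 10 largest rises among genes with a mean of at least 50 had mixed functions. THA1 (AT1G08630), threonine aldolase, had 6447, 7418 and 10769 normalised counts at 27 °C, against 79.4, 148 and 500.3 at 22 °C, the largest rise by the naming rule at 5.46 (SE 0.79, adjusted p = 1.45e-05). Its cool libraries spanned more than 6-fold, again with replicate 3 highest. CCL, a short-lived clock-controlled transcript, had 5799, 6884 and 7413 normalised counts at 27 °C, against 190.1, 269.8 and 419 at 22 °C (log2 difference 4.58, SE 0.34, adjusted p = 2.07e-08). AT2G15880, annotated as a leucine-rich repeat protein, had 4618, 5251 and 4659.5 normalised counts at 27 °C, against 263, 255 and 283 at 22 °C (log2 difference 4.17, SE 0.18, adjusted p = 1.35e-10). For this gene the replicates of each temperature lay close together. MRN1, which makes the triterpene marneral, had 106, 127 and 75.8 normalised counts at 27 °C, against 0.845, 5.69 and 6.24 at 22 °C, and its 297 reads at 27 °C against 13 at 22 °C give a ratio of 24.7 with an exact 95% counting interval of 14.2 to 46.8. MRN1 reached 10 only at 27 °C, so it too was tested only through the temperature where it is high. The list of the 10 largest rises also held AT1G65970 at 4.60 (SE 0.35), annotated as a thioredoxin-dependent peroxidase, AT4G25580 at 4.04 (SE 0.44), CYP71B24 at 3.83 (SE 0.46), WRKY49 at 3.83 (SE 0.16) and COR413IM1, a cold-regulated plastid membrane protein, at 3.80 (SE 0.49).

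Genes of growth by cell division and protein synthesis fell together. All 17 listed mitosis genes were called lower (median -1.14), and so were 15 of 16 genes of DNA replication, with 1 not called (median -0.77). HIK (AT1G18370), a kinesin needed to build the cell plate, had 490.3, 389.8 and 423 normalised counts at 27 °C, against 1475, 1235 and 1133 at 22 °C (log2 difference -1.56, SE 0.14, adjusted p = 1.04e-07). The mitotic kinase gene AUR2 differed by -1.55 (SE 0.12) and the cyclin gene CYCB1;1 by -1.36 (SE 0.12). In S phase, the sliding clamp gene PCNA1 differed by -1.26 (SE 0.14) and the origin licensing gene CDT1A by -1.24 (SE 0.13).

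Of 28 genes of the cytosolic ribosome and the nucleolus 26 fell and none rose (median -0.75). RPL24A (AT2G36620) had 2958, 2731 and 2309.6 normalised counts at 27 °C, against 7876, 6689.8 and 6229.8 at 22 °C (log2 difference -1.38, SE 0.14, adjusted p = 3.97e-07). RPS6A (AT4G31700), the ribosomal protein phosphorylated by the TOR pathway, had 6933, 6703 and 5706 normalised counts at 27 °C, against 17910, 14870 and 13861 at 22 °C (log2 difference -1.27, SE 0.14, adjusted p = 1.18e-06). Every warm library lay far below every cool one for both. FIB2, a nucleolar RNA methylase, differed by -1.24 (SE 0.20).

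Promoters of ribosomal genes often carry the telo-box. Its core AAACCCT, searched on both strands, lay in 6 of the 28 windows of this list (21.4%), against 6.33% over all genes tested. 2 of the 6 are shown, chosen after their values were seen, with the match in capitals, 5′ to 3′, from TAIR10.1. NOP56, a nucleolar core protein at chr1:20986953-20987202 (- strand), differed by -0.94 (SE 0.15). RPSAA, a small subunit protein at chr1:27244932-27245181 (- strand), differed by -0.94 (SE 0.15).
NOP56: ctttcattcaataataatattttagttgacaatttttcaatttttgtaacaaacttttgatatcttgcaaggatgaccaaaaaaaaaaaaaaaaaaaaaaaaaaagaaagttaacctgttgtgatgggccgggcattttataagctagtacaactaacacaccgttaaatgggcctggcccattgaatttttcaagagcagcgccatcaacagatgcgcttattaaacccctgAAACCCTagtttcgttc
RPSAA: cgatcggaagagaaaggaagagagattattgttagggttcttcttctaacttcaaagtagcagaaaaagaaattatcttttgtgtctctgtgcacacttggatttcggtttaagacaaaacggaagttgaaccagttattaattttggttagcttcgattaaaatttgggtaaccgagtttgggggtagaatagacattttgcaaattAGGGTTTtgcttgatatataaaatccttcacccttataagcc
All 6 genes of the list with a match fell, as did 20 of the 22 without one. Over all genes, 41.3% of those with the core in their window fell, against 35.2% of those without.

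Chaperones of the endoplasmic reticulum, which fold secreted proteins, fell as well. Of 8 tested, 7 fell (median -0.59). BIP2 (AT5G42020) had 3978, 3804 and 3255 normalised counts at 27 °C, against 9790.5, 7498 and 7499 at 22 °C (log2 difference -1.16, SE 0.14, adjusted p = 2.49e-06). Its near-identical copy BIP1 differed by -0.79 (SE 0.11), and reads that mapped to both stayed out of the values. Replicate 1 from 22 °C held the highest level of each.

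The cytosolic heat shock genes rose in part. Of 23 tested, 13 rose and 3 fell (median 0.66), and 1 fell without replicate 1 from 22 °C or replicate 3 from 27 °C. GOLS1 (AT2G47180), a galactinol synthase induced by heat shock factors, had 696, 1038 and 1127 normalised counts at 27 °C, against 135, 122 and 149.7 at 22 °C (log2 difference 2.78, SE 0.20, adjusted p = 1.91e-08). MBF1C (AT3G24500), a heat-induced coactivator, had 1998, 2014 and 2405 normalised counts at 27 °C, against 615, 665 and 656 at 22 °C (log2 difference 1.72, SE 0.10, adjusted p = 1.57e-09). The small chaperone gene HSP17.4 (AT3G46230) had 38, 125 and 156 normalised counts at 27 °C, against 27.0, 16.3 and 23.7 at 22 °C (log2 difference 2.00, SE 0.69, adjusted p = 0.0166). The 3 warm libraries of HSP17.4 differed about 4-fold among themselves, and the lowest of them lay just above the highest cool one. The call of HSP17.4 was lost without replicate 2 from 22 °C (adjusted p = 0.0566) and without replicate 2 or 3 from 27 °C (adjusted p = 0.0592 or 0.0775), each by limma. The heat shock element, GAANNTTC on both strands, was present in 5 of the 23 windows (21.7%), against 9.23% over all genes. Of the list, 4 of the 5 genes with a match rose and 9 of the 18 without one, while over all genes 31.15% of those with a match rose, against 32.38% of those without. The window of HSP17.4 at chr3:16984868-16985117 (- strand) is shown because this small chaperone gene rose and its window holds 2 matches.
HSP17.4: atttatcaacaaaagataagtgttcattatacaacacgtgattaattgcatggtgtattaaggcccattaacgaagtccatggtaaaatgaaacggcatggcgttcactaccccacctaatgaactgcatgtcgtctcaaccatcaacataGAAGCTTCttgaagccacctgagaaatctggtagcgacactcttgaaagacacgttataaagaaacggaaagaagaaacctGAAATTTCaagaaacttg
Cold response genes did not fall as a list. Of 13 tested 7 rose and 1 fell (median 0.70). COR27, a cold-regulated gene, differed by 2.30 (SE 0.32), the cold regulator CBF2 by 2.09 (SE 0.35) and the dehydration gene RD29B by 1.8 (SE 0.38), while the galactinol synthase gene GOLS3 fell, at -1.75 (SE 0.17, adjusted p = 2.25e-07).

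Photosynthesis genes divided by function. Of 36 genes of light harvesting and the photosystems, 18 rose and 4 fell (median 0.34). Without replicate 1 from 22 °C 10 of the 36 rose, in a fit where 5908 of all 20585 genes rose. LHCB4.2 (AT3G08940), a minor antenna protein, had 121870, 145710 and 154370 normalised counts at 27 °C, against 47633, 59036 and 62525 at 22 °C (log2 difference 1.32, SE 0.21, adjusted p = 3.41e-05). LHCA4 and LHCA3, antenna proteins of photosystem I, differed by 1.09 (SE 0.25) and 0.97 (SE 0.19). By contrast, 11 of 18 genes of chlorophyll synthesis fell and 2 rose (median -0.54). PCB2 (AT5G18660), the divinyl reductase, had 3567, 3318 and 2819 normalised counts at 27 °C, against 9243, 10520 and 8716 at 22 °C (log2 difference -1.56, SE 0.13, adjusted p = 4.83e-08). HEMC and CHLG, which act at an early and at the last step, differed by -1.20 (SE 0.08) and -1.14 (SE 0.08). Of 14 Calvin cycle genes 5 rose and 1 fell. The 2 ends were small subunits of Rubisco from neighbouring genes of near-identical sequence, and reads that mapped to both stayed out of the values. RBCS2B had 105940, 115550 and 112900 normalised counts at 27 °C, against 51280, 61988 and 60509 at 22 °C, and RBCS1B had 7468, 9158 and 7848 normalised counts at 27 °C, against 16606, 18576 and 18080 at 22 °C. The first was higher and the second lower in all 3 warm libraries.

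Early light-induced proteins, which protect the photosystems while plastids green, were among the largest falls. ELIP2 (AT4G14690) had 50.6, 39.1 and 47.8 normalised counts at 27 °C, against 739, 723 and 734 at 22 °C (log2 difference -3.98, SE 0.16, adjusted p = 9.95e-11). ELIP1 (AT3G22840) had 45.3, 30.5 and 22.2 normalised counts at 27 °C, against 406, 328 and 359 at 22 °C (log2 difference -3.49, SE 0.21, adjusted p = 3.01e-09). Neither gene overlapped between temperatures. Of 61 plastid genes tested of 133, 26 rose and 2 fell, and of 10 mitochondrial genes tested of 146, 8 rose and none fell. Of those tested, 4 plastid genes and 1 mitochondrial gene reached 10 only at 27 °C, the temperature where they are high. Of the other 57 plastid genes 23 rose and 2 fell, and of the other 9 mitochondrial genes 7 rose and none fell. The other organelle genes were under the level for testing.

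Flavonoid pigment genes fell in part. In the early pathway 7 of 9 genes tested fell and none rose (median -1.03). TT4 (AT5G13930), chalcone synthase, had 407, 417 and 453 normalised counts at 27 °C, against 1668, 1434 and 1588 at 22 °C (log2 difference -1.87, SE 0.09, adjusted p = 4.55e-10). FLS1 (AT5G08640), flavonol synthase, had 116, 104 and 94.7 normalised counts at 27 °C, against 759, 636 and 618 at 22 °C (log2 difference -2.67, SE 0.16, adjusted p = 3.59e-09). The anthocyanin branch held 15 tested genes of 18. Of these, LDOX, PAP1, DFR, UF3GT and TT19 reached 10 only at 22 °C, so they were tested only through the temperature where they are high. Of the other 10, 5 fell and 2 rose (median -0.22). LDOX (AT4G22880), which makes the coloured anthocyanidins, had 1.05, 0 and 0 normalised counts at 27 °C, against 92.1, 107 and 84.8 at 22 °C. That is 1 read at 27 °C against 309 at 22 °C, a ratio of 0.00349 with an exact 95% counting interval of 8.81e-05 to 0.0196. DFR, the step before LDOX, had 3 reads against 97 (ratio 0.0334, interval 0.00676 to 0.1004). PAP1 (AT1G56650), the MYB factor that switches this branch on, had 8.44, 4.89 and 1.65 normalised counts at 27 °C, against 122, 143 and 117 at 22 °C, the largest fall by the naming rule at -4.60 (SE 0.41, adjusted p = 1.01e-07). 1 of the 2 rises, noted after its value was seen, was MYBL2, a repressor of the branch, at 3.41 (SE 0.36, adjusted p = 5.2e-07).

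Root hair markers fell strongly. All 11 listed root hair genes fell, with a median log2 difference of -2.36 and a summed level of 3878 to 5865 at 27 °C and 13259 to 18203 at 22 °C. PRP3 (AT3G62680), a root hair wall protein, had 517, 749 and 176 normalised counts at 27 °C, against 4288, 2615 and 2560.3 at 22 °C (log2 difference -2.90, SE 0.62, adjusted p = 0.000622). LRX1 (AT1G12040), a leucine-rich repeat extensin, had 410.2, 462 and 111 normalised counts at 27 °C, against 2552, 1661 and 1505 at 22 °C (log2 difference -2.74, SE 0.61, adjusted p = 0.000866). Replicate 3 was by far the lowest of the warm libraries and replicate 1 the highest of the cool ones. Of the 10 largest falls by the naming rule, 4 were further root hair or wall genes, namely EXT6 at -3.27 (SE 0.80), XTH26 at -3.26 (SE 0.80), RHS19 at -3.24 (SE 0.60) and AT5G06630 at -3.24 (SE 0.77). The other members of those 10 falls not given above were AT4G32950, a phosphatase 2C, at -4.02 (SE 0.19), ABCA3, a transporter, at -3.86 (SE 0.42) and TYRDC, tyrosine decarboxylase, at -3.19 (SE 0.33). No root hair marker was at 0.

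Casparian strip and suberin genes moved the other way. Of these 18 genes, 12 rose and none fell (median 0.73, summed level 22874 to 25467 at 27 °C and 12290 to 14632 at 22 °C). CASP5 (AT5G15290), a scaffold of the Casparian strip, had 3204, 2517 and 2291 normalised counts at 27 °C, against 998, 1152 and 1419.9 at 22 °C (log2 difference 1.17, SE 0.16, adjusted p = 1.12e-05). CYP86A1, a suberin hydroxylase, had 48.5, 34.2 and 66.7 normalised counts at 27 °C, against 3.38, 8.13 and 25 at 22 °C (log2 difference 2.28, SE 0.58, adjusted p = 0.00247), with a wide spread among the cool libraries. Of 12 xylem and secondary wall genes 6 rose and none fell (summed level 8713 to 9538 at 27 °C and 5109.8 to 6812 at 22 °C), led by the xylem protease XCP2 at 1.00 (SE 0.17) and the laccases LAC4 and LAC17 at 0.69 (SE 0.16) and 0.64 (SE 0.19). Without replicate 1 from 22 °C only 2 of the 12 rose, and LAC17 was not among them (limma adjusted p = 0.0556). Of 6 markers of root meristem and stele 2 fell, PLT2 at -0.77 (SE 0.16) and SCR at -0.19 (SE 0.07) (summed level 4961 to 5431 at 27 °C and 5331 to 5568 at 22 °C). SCR was not called without replicate 1 from 22 °C or replicate 2 from 27 °C (limma adjusted p = 0.125 or 0.0896). The part of cell numbers in these differences was not tested.

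In the shoot epidermis 4 of 10 stomatal genes fell and 2 rose, where 35.5% of all genes fell and 32.3% rose (summed level 7533 to 8232 at 27 °C and 7733 to 8001 at 22 °C). Stomatal genes that fell included the lineage factors SPCH at -1.0 (SE 0.11) and MUTE at -0.77 (SE 0.16). The peptide gene EPF2, which restricts the lineage, also fell, at -0.87 (SE 0.12), whereas STOMAGEN, a peptide that promotes stomata, rose by 0.93 (SE 0.09). Of 13 cuticle and wax genes 5 fell and 1 rose (summed level 45453 to 47424 at 27 °C and 46861 to 51534 at 22 °C), with the alcohol-forming reductase CER4 at -2.15 (SE 0.25) and the hydroxylase CYP86A4 at -1.44 (SE 0.15). Of 7 leaf initiation genes 1 rose, GRF3 at 0.22 (SE 0.07), and 1 fell, ANT at -0.14 (SE 0.06) (summed level 6899.9 to 8002 at 27 °C and 7112 to 7867 at 22 °C). GRF3 was not called without replicate 2 from 27 °C (limma adjusted p = 0.0525). ANT was called by a narrow margin and lost the call in 14 of the 18 fits that left out 1 library. Every member of these 7 tissue lists was measured, so whole seedlings expressed each of them.

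Genes that extend cell walls did not move as 1 group. Of 21 expansins and xyloglucan enzymes, 4 rose and 5 fell (median 0.02). XTH24 (AT4G30270) had 9120.3, 10497 and 13021 normalised counts at 27 °C, against 1358, 1595 and 2092 at 22 °C (log2 difference 2.70, SE 0.23, adjusted p = 6.25e-08), whereas EXPA10 (AT1G26770) had 322, 329.9 and 250.4 normalised counts at 27 °C, against 1494, 1221 and 1149 at 22 °C (log2 difference -2.10, SE 0.12, adjusted p = 1.91e-09). The 2 genes lay at opposite ends of the list. Primary wall cellulose synthesis gave 1 rise and 3 falls among 7, with the synthase subunit CESA5 at -1.32 (SE 0.08). Of 7 vegetative aquaporins, which carry water into expanding cells, 6 rose (median 0.86), with PIP2B at 1.15 (SE 0.17) and TIP2;1 at 0.98 (SE 0.20).

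Storage genes of the seed were mostly not called. Of 18 tested 4 rose and none fell. BETA-TIP (AT1G17810), a water channel of seed storage vacuoles, had 332, 571 and 461 normalised counts at 27 °C, against 8.45, 8.94 and 15 at 22 °C (log2 difference 5.28, SE 0.37, adjusted p = 1.42e-08). It was among the 10 largest rises by the naming rule, and 2 of its 3 cool libraries lay under 10. RAB18, an abscisic acid-induced dehydrin, had 279, 795 and 319.6 normalised counts at 27 °C, against 140.2, 117 and 93.6 at 22 °C (log2 difference 1.83, SE 0.40, adjusted p = 0.000721). Among 4 seed maturation regulators DOG1, the dormancy gene, had 41.1, 37.9 and 60.1 normalised counts at 27 °C, against 2.53, 2.44 and 4.99 at 22 °C, that is 143 against 10 reads (ratio 15.4, exact 95% counting interval 8.15 to 32.9). DOG1 reached 10 only at 27 °C, so it was tested only through the temperature where it is high. ABI5 and ABI3 rose by 1.26 (SE 0.26) and 0.72 (SE 0.13), and ABI4 fell, at -1.30 (SE 0.51). ABI4 was not called without replicate 1 or 2 from 22 °C or replicate 1 or 3 from 27 °C (limma adjusted p = 0.153, 0.0527, 0.0932 or 0.118). Genes that mobilise reserves were split, with 8 of 19 up and 8 down. The count of falls was 4 without replicate 1 from 22 °C or replicate 3 from 27 °C, and 5 without replicate 2 from 27 °C. Within the glyoxylate cycle, which turns stored lipid into sugar, ICL, isocitrate lyase, had 276160, 305420 and 241870 normalised counts at 27 °C, against 184740, 155590 and 147080 at 22 °C (log2 difference 0.76, SE 0.18, adjusted p = 0.00146), while MLS, malate synthase, had 21851, 19478 and 15099 normalised counts at 27 °C, against 50170, 33065 and 30912 at 22 °C (log2 difference -1.0, SE 0.24, adjusted p = 0.00139). The 2 enzymes of 1 cycle thus moved in opposite directions.

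The other motifs searched in the same windows, on both strands, were compared with their share over all genes tested. The RY core CATGCA, a seed motif, lay before 11 of 18 seed storage genes (61.1%), against 7.70% of all. The abscisic acid element ACGTGTC lay before 6 of 14 abscisic acid genes (42.9%), against 4.29% of all. The cold element core CCGAC lay before 5 of 13 cold response genes (38.5%), against 12.8% of all. The G-box CACGTG, which PIF factors bind and which can overlap the abscisic acid element, lay before 7 of 22 clock genes (31.8%), 1 of 17 shade and PIF targets (5.88%) and none of 9 auxin synthesis genes, against 7.43% of all. Within these lists, rises were no more frequent with a match for the RY core (1 of 11, against 3 of 7 without), the abscisic acid element (2 of 6, against 5 of 8), the cold core (2 of 5, against 5 of 8) or the G-box among clock genes (5 of 7, against 12 of 15).

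Chromatin genes changed modestly. All 11 tested genes of histone deacetylases and partners were called, 7 higher and 4 lower. HDA2 and HDA8 differed by 1.11 (SE 0.16) and 1.07 (SE 0.09), and HDA14 by -0.61 (SE 0.07). Of 6 genes for the histone variant H2A.Z and its loading complex 1 rose, HTA9 at 0.48 (SE 0.08), and 2 fell, HTA8 at -0.68 (SE 0.08) and HTA11 at -0.54 (SE 0.06). Of 17 genes of flowering and phase change, 11 rose and 2 fell, with the floral repressors TEM1 at 1.26 (SE 0.16) and SVP at 1.12 (SE 0.16). LFY reached 10 only at 27 °C, the temperature where it is high, and of the other 16 genes 10 rose and 2 fell. Of 10 senescence genes 6 rose and 1 fell, with the NAC factors NAP and NAC6 at 2.06 (SE 0.36) and 1.70 (SE 0.27).

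The remaining lists showed small or opposed changes, where 32.3% of all genes rose and 35.5% fell. Of 16 glucosinolate genes 4 rose and 7 fell, with the myrosinase gene TGG1 at 1.53 (SE 0.14) and CYP79B2 of the synthesis route at -0.93 (SE 0.13). Iron homeostasis gave 5 rises and 4 falls among 19, with the ferritin gene FER3 at -1.05 (SE 0.17). The rises numbered 2 without replicate 3 from 27 °C and 3 without replicate 2 from 27 °C or replicate 1 from 22 °C. Nitrate and phosphate genes gave 4 rises and 2 falls among 11, with the nitrite reductase gene NIR1 at -1.18 (SE 0.12) and the phosphate exporter gene PHO1 at 1.13 (SE 0.21). Of 6 antioxidant enzymes 3 rose, with the catalase gene CAT3 at 1.16 (SE 0.10), and 3 fell, with the superoxide dismutase gene CSD2 at -1.25 (SE 0.09).

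**Figure D3:**
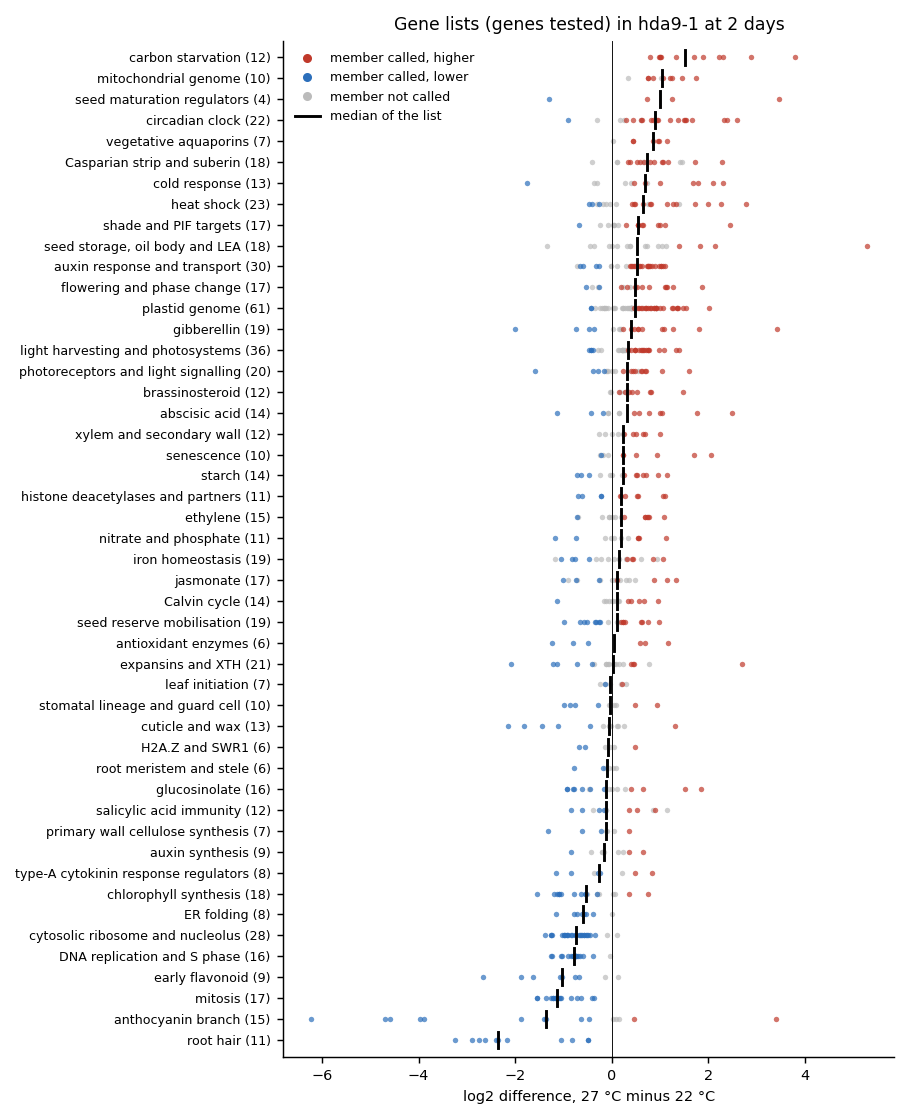
Log2 differences, 27 °C minus 22 °C, of every tested member of the 48 gene lists, sorted by the list median (black bar), with called members in red (higher) and blue (lower) and others in grey. Carbon starvation lies at the top with a median of 1.51 and root hair at the bottom with -2.36.

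Whether the mutant responded differently from WT was tested as the difference between the 2 responses. Of the 20585 genes, 600 were called (2.91%), 123 with a more positive (0.598%) and 477 with a more negative response (2.32%) in hda9-1. WT had 14979 genes called (72.8%), with 7607 higher (37.0%) and 7372 lower (35.8%) at 27 °C. Of the 6651 genes that rose in hda9-1, 5894 also rose in WT (88.6% of the hda9-1 risers and 77.5% of the WT risers), and 6205 fell in both (84.98% and 84.2%). The largest class of differences, 337 of the 600, were genes that rose in WT and rose less in hda9-1. In 288 of these 337 the hda9-1 libraries all lay above the WT libraries at 22 °C, which held for 29.5% of all genes, and in 148 all lay below them at 27 °C, which held for 20.06% of all genes. The class was chosen by the difference of responses, so these shares describe it and were not tested. Set against pif4-2, 490 genes were called (2.38%), 71 more positive (0.345%) and 419 more negative (2.04%). In pif4-2 itself 14631 genes were called (71.1%), 7473 higher (36.3%) and 7158 lower (34.8%). Both differences use the same hda9-1 libraries.

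The number of genes called in these differences depended on single libraries. Without WT replicate 1, 2 or 3 from 22 °C, 58, 85 or 1286 genes were more negative in hda9-1 than in WT. Without WT replicate 1 or 2 from 27 °C there were 176 or 160. Without hda9-1 replicate 1, 2 or 3 from 22 °C there were 719, 95 or 102, without hda9-1 replicate 2 or 3 from 27 °C 149 or 85, and without pif4-2 replicate 1 from either temperature, 214 at 22 °C or 315 at 27 °C. With replicate 3 left out of both hda9-1 groups, 7 genes were more positive and 25 more negative. Against pif4-2 the count of more negative genes lay between 138 and 589 when 1 library was left out. Of the 13 genes named below as different from WT, HDA9, ELIP2 and AT4G32950 were called in every such fit, and the other 10 lost the call in at least 1. IAA19, HB-2, ROT3, LAC4 and GRF3 lost it in most of the 18 fits without 1 library. List counts of such differences moved likewise. Without 1 library the more negative responses against WT numbered 0 to 11 in the auxin response list, 0 to 11 in the shade and PIF list, 1 to 9 in the expansin and xyloglucan list, 0 to 9 in the xylem list and 1 to 9 in the cuticle list.

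Auxin and shade genes stood among those with smaller rises. IAA19 (AT3G15540) averaged 3787 ± 62.7 at 27 °C and 3100.5 ± 245 at 22 °C in hda9-1, 4218 ± 255 at 27 °C and 1635 ± 520.1 at 22 °C in WT, and 4385 ± 445 at 27 °C and 1649 ± 468 at 22 °C in pif4-2 (normalised counts, SD, n = 3 each). Its response in hda9-1 was smaller than in WT by a log2 difference of -1.12 (SE 0.26, adjusted p = 0.038) and than in pif4-2 by -1.15 (SE 0.26, adjusted p = 0.0298). The call against WT was lost in most of the 18 fits without 1 library (limma adjusted p = 0.0508 to 0.1137). The call against pif4-2 was lost in 10 of 18 such fits (limma adjusted p = 0.0506 to 0.0873). The hda9-1 libraries lay above both other genotypes at 22 °C and slightly below both at 27 °C. HB-2 (AT4G16780) was also highest in the mutant at 22 °C. It averaged 2003 ± 62.4 at 27 °C and 1030.5 ± 78.1 at 22 °C in hda9-1, 1919.5 ± 182 at 27 °C and 567 ± 126 at 22 °C in WT, and 1675 ± 150.4 at 27 °C and 484 ± 99.3 at 22 °C in pif4-2, with a difference from WT of -0.82 (SE 0.20, adjusted p = 0.0422). ROT3 differed from WT by -0.58 (SE 0.14, adjusted p = 0.038) and ST2A by -1.36 (SE 0.28, adjusted p = 0.0223). Against WT the auxin response list (30 genes) held 4 more negative and 1 more positive response, and the shade and PIF list (17 genes) likewise held 4 and 1. The responses of PIF4, YUC8 and IAA29 were not called as different from WT or from pif4-2.

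Wall and tissue genes showed the same kind of difference. Of the 21 expansins and xyloglucan enzymes, 8 responded more negatively than in WT and 8 more negatively than in pif4-2 (3 to 9 against pif4-2 without 1 library). Over all genes 2.32% did so against WT and 2.04% against pif4-2. Of 12 xylem genes 6 did so against WT and none against pif4-2 (0 to 4 against pif4-2 without 1 library). LAC17 (AT5G60020), a lignin laccase, averaged 607 ± 64.8 at 27 °C and 398 ± 109.7 at 22 °C in hda9-1, 756 ± 18.9 at 27 °C and 208 ± 62.3 at 22 °C in WT, and 629 ± 50.2 at 27 °C and 225 ± 37.0 at 22 °C in pif4-2, with differences of -1.26 (SE 0.27, adjusted p = 0.0271) from WT and -0.85 (SE 0.27, adjusted p = 0.106) from pif4-2. Against pif4-2 LAC17 was called without hda9-1 replicate 1 or WT replicate 3 from 22 °C (limma adjusted p = 0.0334 or 0.0472). LAC4 differed from WT by -0.90 (SE 0.23, adjusted p = 0.0453) and CASP5 by -1.04 (SE 0.23, adjusted p = 0.0322). Of 13 cuticle and wax genes 5 were more negative against WT and 6 against pif4-2 (3 to 7 against pif4-2 without 1 library). CYP86A4 (AT1G01600) averaged 346 ± 43.7 at 27 °C and 939 ± 63.2 at 22 °C in hda9-1, 511 ± 92.4 at 27 °C and 627 ± 134 at 22 °C in WT, and 503 ± 6.23 at 27 °C and 609 ± 91.6 at 22 °C in pif4-2, a difference of -1.15 (SE 0.21, adjusted p = 0.0141) from WT. For this gene the hda9-1 libraries were the lowest at 27 °C and the highest at 22 °C.

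Other named genes differed from WT in their own ways. ELIP2 (AT4G14690) averaged 45.8 ± 6 at 27 °C and 732 ± 8.02 at 22 °C in hda9-1, 119 ± 31.8 at 27 °C and 586 ± 45.7 at 22 °C in WT, and 130.5 ± 16.5 at 27 °C and 645 ± 93.0 at 22 °C in pif4-2, and its fall was steeper in hda9-1 by -1.66 (SE 0.22, adjusted p = 0.00306). AT4G32950 also fell more, by -1.88 (SE 0.27, adjusted p = 0.00333). WRKY49 rose more, by 0.98 (SE 0.22, adjusted p = 0.0356), and its level at 22 °C was 41.3 ± 8.90 normalised counts in hda9-1, against 147 ± 16.6 in WT (SD, n = 3 each). GRF3 rose in hda9-1 with a difference from WT of 0.40 (SE 0.10, adjusted p = 0.0395). The residual HDA9 reads rose in hda9-1 and fell in WT, a difference of 0.96 (SE 0.13, adjusted p = 0.00306). Of the 17 mitosis genes 3 had a more positive response than in WT, and between 0 and 7 without 1 library. Of the clock, heat shock, light harvesting, carbon starvation and root hair lists no member was called against WT, where 2.91% of all genes were, so lists of this size would hold few calls at that share.

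**Figure D4:**
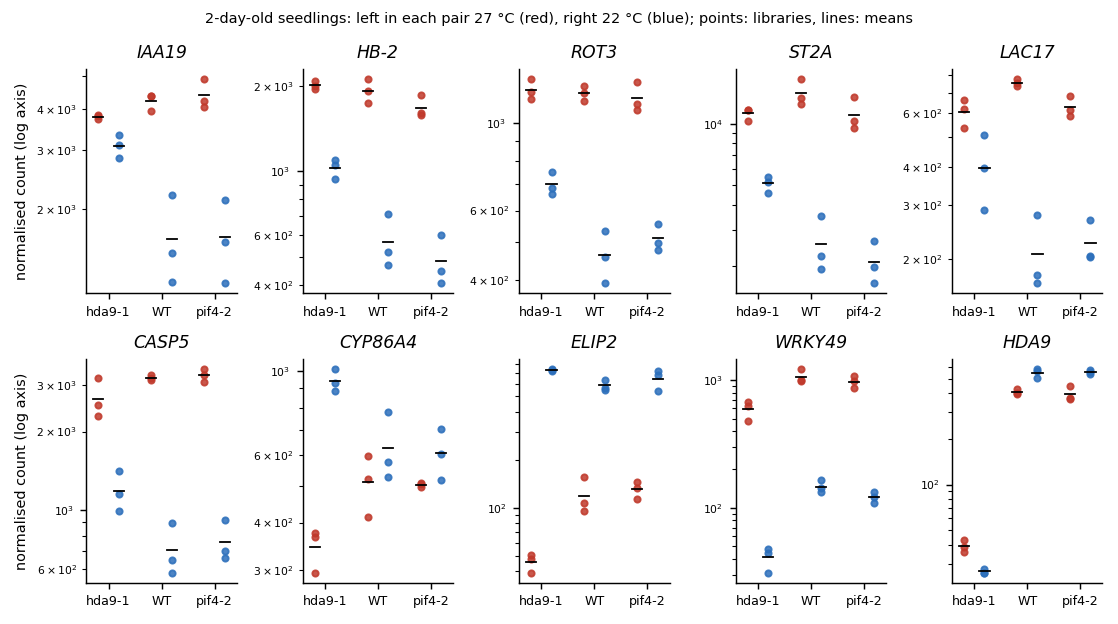
Normalised counts (log axis) of 10 genes whose response was called as different between hda9-1 and WT, in 2-day-old seedlings of hda9-1, WT and pif4-2, with 27 °C (red) left of 22 °C (blue) in each pair. For IAA19, HB-2, ROT3, ST2A, LAC17 and CASP5 the cool hda9-1 libraries lie above the cool WT libraries, so the step between temperatures is shorter in hda9-1.

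The warmth response of hda9-1 at 2 days was also set against that of the same mutant at 7 days, where 12675 genes were called (61.6%), 6068 higher (29.5%) and 6607 lower (32.1%). The difference between ages was called for 8708 genes (42.3%), with 4363 more positive (21.2%) and 4345 more negative (21.1%) at 2 days, in a fit of the 12 hda9-1 libraries. Of the 6651 risers at 2 days 4005 also rose at 7 days (60.2%) and 582 fell. Of the 7302 that fell at 2 days 4417 also fell at 7 days (60.5%) and 516 rose. Below, SEs at 2 days come from the fit of 18 libraries, and those at 7 days and of the difference from the fit of 12.

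Photosynthesis genes differed between the ages. Of the light harvesting list, 32 of 36 genes responded more positively at 2 than at 7 days, where the median was -0.43 in place of 0.34. LHCB4.2 had a log2 difference between temperatures of 1.32 (SE 0.21) at 2 days and -0.03 (SE 0.12) at 7 days, a difference of responses of 1.36 (SE 0.17, adjusted p = 3.71e-05). Casparian strip and suberin genes behaved likewise, with 15 of 18 more positive at 2 days and a median of -0.30 at 7 days, as did 9 of 13 cold response genes and 10 of 14 Calvin cycle genes. Heat shock genes leaned the other way. 12 of 23 responded less at 2 days, and the median was 0.66 at 2 and 1.56 at 7 days. Small chaperone HSP17.4 differed by 2.00 (SE 0.69) at 2 and 4.17 (SE 0.41) at 7 days, with a difference of -2.16 (SE 0.58, adjusted p = 0.00811).

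Growth machinery fell at both ages. The ribosome list had a median of -0.75 at 2 and -0.42 at 7 days, with 18 of 28 members more negative at 2 days. Mitosis genes had -1.14 and -1.47, with 6 of 17 more positive at 2 days, or 3 to 9 without 1 library. Of the reserve mobilisation genes 14 of 19 were more negative at 2 days. MLS fell at 2 days, at -1.0 (SE 0.24), and rose at 7 days, at 0.87 (SE 0.15), a difference of -1.87 (SE 0.22, adjusted p = 2.54e-05). The myrosinase gene TGG2 differed by 1.85 (SE 0.13) at 2 and -2.05 (SE 0.11) at 7 days, a difference of 3.90 (SE 0.15, adjusted p = 1.07e-08). The clock gene PRR7 differed by 2.59 (SE 0.14) at 2 and 2.60 (SE 0.11) at 7 days.

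**Figure D5:**
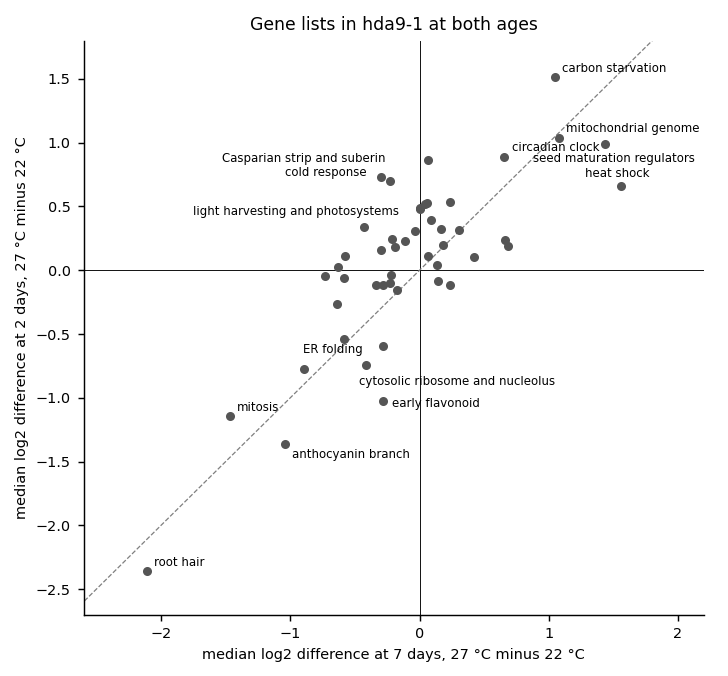
Median log2 difference, 27 °C minus 22 °C, of each of the 48 gene lists in hda9-1 at 2 days (y axis) against 7 days (x axis), with the dashed line marking equal medians. Root hair has the lowest median at both ages, carbon starvation the highest at 2 days and heat shock the highest at 7 days, while light harvesting, cold response and Casparian strip and suberin have a positive median at 2 days and a negative one at 7 days.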

How the data were processed

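RNA was sequenced from whole seedlings as single-end reads of 50 bases. Per the submitters' processing notes, FastQC, TopHat2, Bowtie, HTSeq and DESeq were used with TAIR10. The deposited values are a signal, read counts divided by the authors with 1 size factor per library, and every value of the 24 libraries used came out as whole reads (100.0%, tolerance 0.01). Values of at least 10 in 3 libraries were required. limma 3.58.1 (R 4.3.3, trend on log2(value + 1)) was fitted over the 18 libraries of 2-day-old seedlings, which share 1 estimate of spread, and over 12 hda9-1 libraries for the difference between ages, with Benjamini-Hochberg adjustment over 20585 genes. The fits were tested on simulated data. edgeR 4.0.16 and DESeq2 1.42.0 on recovered reads were alternatives. Reads that mapped to several places or to no gene stayed out of the values. Replicate numbers were not taken as pairs. Named were 5 fixed genes, the 10 largest rises and falls with a mean of at least 50 and no overlap, and up to 4 called genes per list. Members and lists were chosen with earlier results of these data known. Counting intervals cover counting error only. Windows of 250 bases before each gene start came from RefSeq TAIR10.1, searched for 7 motifs.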

Additional observations from a re-analysis of the deposited data

Results flagged for a closer look

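For 13 named genes the response to warmth at 2 days differed between hda9-1 and WT by the test of the difference itself (log2 response of hda9-1 minus that of WT). Growth and hormone genes had negative differences, -1.12 for IAA19, -0.82 for HB-2, -0.58 for ROT3 and -1.36 for ST2A. So had the wall and barrier genes, -1.26 for LAC17, -0.90 for LAC4, -1.04 for CASP5 and -1.15 for CYP86A4. AT4G32950 at -1.88 and ELIP2 at -1.66 fell in both genotypes and fell more in hda9-1. WRKY49 at 0.98, HDA9 at 0.96 and GRF3 at 0.40 had positive differences. Against pif4-2, IAA19 differed by -1.15, a call lost in 10 of 18 fits without 1 library. Of the 13 differences from WT, those of HDA9, ELIP2 and AT4G32950 were called in every fit without 1 library. Those of IAA19, HB-2, ROT3, LAC4 and GRF3 were lost in most such fits.

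Between ages in hda9-1 the difference (2 days minus 7 days) was 3.90 for TGG2, 1.36 for LHCB4.2, -1.87 for MLS and -2.16 for HSP17.4.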

How the results depend on the processing

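Over all genes, the counts for warmth in hda9-1 and for the difference between ages stayed within 1.5 times of those reported under every alternative run. The difference from WT, 123 genes more positive and 477 more negative in hda9-1, did not. DESeq2 called 359 more positive, edgeR 279 more negative, and without a filter on low values 314 were more negative. Leaving out replicate 3 of WT and pif4-2 gave 614 and 1493, and leaving out replicate 3 of both hda9-1 groups 7 and 25. The difference from pif4-2, 71 and 419, became 298 more positive with DESeq2, 244 and 801 without replicate 3 of WT and pif4-2, and 7 and 36 without replicate 3 of both hda9-1 groups. With 1 library left out, the difference from WT ranged from 10 to 565 more positive and 58 to 1286 more negative, and that from pif4-2 from 13 to 153 and from 138 to 589. The cause was not tested.

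A replicate block called 7091 higher and 7739 lower for warmth, 4920 and 4870 between ages, 1061 and 1931 against WT, and 777 and 1562 against pif4-2. In hda9-1 at 2 days, deviations from the group mean correlated between temperatures at 0.24, -0.03 and 0.27 for libraries of the same number. For libraries of different numbers they correlated at -0.39 to 0.20. So few values from 1 genotype cannot decide whether the numbers pair libraries. The labels do not pair them, so the numbers were not taken as pairs. Whether libraries of the same number share a batch across genotypes was not tested. For IAA19 at 22 °C replicate 3 was highest in WT and in pif4-2, and replicate 2 in hda9-1. For the starch gene PHS2 at 27 °C replicate 2 was highest in all 3 genotypes. Of 144 named genes, 6 lost the call for warmth under some alternative and IAA19 gained it. For the difference from WT, 10 of 13 lost it. The filter over 18 libraries and the removal of WT and pif4-2 replicates were not run for the difference between ages. Counts within lists moved more. Besides those given above, mitochondrial rises went from 8 to 13 with no filter on low values and to 4 without replicate 3 of both hda9-1 groups, and seed storage rises from 4 to 7 with only the 6 hda9-1 libraries. Counts of 1 or 2 calls in a list often changed by 1. In 9 lists some members reached 10 at 1 temperature only. Leaving them out changed the median to 0.85 for the clock, 0.57 for heat shock and 0.32 for gibberellin. TMM scaling moved the median of all genes by 0.02.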
